A study of Mus musculus with 10 samples.

Results

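A set of 8 genes was followed in the mouse kidney, 8 of the 43629 genes listed in the count table. The set, put together by function with earlier results of these data known, holds the glucocorticoid receptor Nr3c1, the glucocorticoid-responsive genes Fkbp5, Tsc22d3, Sgk1 and Zbtb16, the metallothioneins Mt1 and Mt2, and the zinc exporter Slc30a1. The libraries came from kidneys of male UM-HET3 mice, a genetically heterogeneous stock in which every animal has its own genotype. All mice were 4 months old and ate the Purina 5LG6 diet. In the rilmenidine group (4 kidneys) the diet carried rilmenidine, a drug given against high blood pressure, at 10 ppm, started at 3 months of age and kept up for 1 month, and the control group (6 kidneys) ate it without the drug. Each library is 1 kidney sample and reads were taken from the 3′ ends of transcripts, so a value is a mixture over all cells of the organ, and fewer cells of a type and less RNA per cell cannot be told apart. Totals ran from 863605 to 3232063 counts per library.

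The extraction text of the labels speaks of liver, while the tissue is given as kidney. Proximal tubule markers, with Kap the most abundant, summed to between 41477 and 211498 counts per library, and 6 liver markers, among them Alb, to between 15 and 90 counts. The adrenal gland, which makes the ligand of the glucocorticoid receptor and lies against the kidney, had markers at or near 0. They (8 genes) summed to between 0 and 19 counts per library, the highest single count was 13 for Star, and Cyp11b2 was at 0 in every library. Several libraries stood apart. Control kidney 2 and rilmenidine kidney 2 had 332 and 436 CPM on olfactory and vomeronasal receptor genes, while control kidney 6 and rilmenidine kidneys 3 and 4 had 8.99, 4.27 and 7.43 CPM. The nuclear RNA Malat1 stood at 284 and 371 CPM in control kidneys 6 and 2, at 1200 to 2209 CPM in the other 4 control kidneys and at 288 to 390 CPM in the rilmenidine kidneys. Control kidney 2 also had the highest summed level of 7 immune markers, 203 normalized CPM against 44.8 to 121 in the other 9 kidneys, and of 5 blood markers, 8803 against 980 to 4115. The part of these library differences in the results that follow was not tested. Values for the 7 libraries with 10 CPM or more on receptor genes are given beside the members. These are control kidneys 1 to 5 and rilmenidine kidneys 1 and 2. Control kidney 6 and rilmenidine kidneys 3 and 4, which are left out, had the highest totals, 2559118, 3042036 and 3232063 counts. The cut-off sorts libraries by these reads and is not a standard of quality.

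Glucocorticoid hormone enters the cell and binds Nr3c1, which is held ready in the cytoplasm by heat shock protein chaperones. The bound receptor moves to the nucleus, attaches to glucocorticoid response elements in DNA and raises or lowers transcription of nearby genes. Fkbp5 encodes a co-chaperone that feeds back on the receptor, Tsc22d3 (also called GILZ) an anti-inflammatory leucine zipper protein, Sgk1 a kinase that keeps the epithelial sodium channel at the cell surface of the distal nephron, and Zbtb16 a zinc finger repressor. Metallothioneins are small cysteine-rich proteins that bind zinc, copper and cadmium, and their transcription is driven by zinc through the factor MTF1 at metal response elements and also by glucocorticoids. Slc30a1 moves zinc out of the cell and is itself a target of MTF1.

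Promoter sequence was searched for the elements of both pathways. RefSeq windows of 250 bases before a transcription start (build GRCm38.p6) were found for 6 of the 8 genes, Fkbp5, Tsc22d3, Sgk1, Mt1, Mt2 and Slc30a1, in 13 windows. Both strands were searched for the metal response element core, written TGCACNC or TGCGCNC, and for the glucocorticoid response element, AGAACA and TGTTCT with any 3 bases between them, where N is any base and the element reads the same on both strands. The 3 stretches below were chosen for the matches found in these windows. They hold the densest metal response elements, the single one found for the neighbouring metallothionein, and the only glucocorticoid response element. All 250 bases of each window were searched. Capitals mark the matches, none of which overlaps a match to the other motif, and each printed stretch ends before the first annotated exon at its own start. The Sgk1 stretch lies inside the annotated gene, after the earlier starts of other transcripts.
Mt2, chr8:94172368-94172617, plus strand: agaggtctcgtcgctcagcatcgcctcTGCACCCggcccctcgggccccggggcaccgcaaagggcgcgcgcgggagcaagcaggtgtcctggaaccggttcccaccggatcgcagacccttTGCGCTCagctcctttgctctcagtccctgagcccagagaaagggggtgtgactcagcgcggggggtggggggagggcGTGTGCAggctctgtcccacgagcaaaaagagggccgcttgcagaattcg
Mt1, chr8:94178839-94179081, plus strand: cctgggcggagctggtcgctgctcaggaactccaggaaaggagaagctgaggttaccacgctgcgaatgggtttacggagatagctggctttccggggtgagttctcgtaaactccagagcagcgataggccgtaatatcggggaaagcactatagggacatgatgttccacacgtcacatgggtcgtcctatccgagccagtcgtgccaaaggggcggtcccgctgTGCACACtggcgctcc
Sgk1, chr10:21993640-21993889, plus strand: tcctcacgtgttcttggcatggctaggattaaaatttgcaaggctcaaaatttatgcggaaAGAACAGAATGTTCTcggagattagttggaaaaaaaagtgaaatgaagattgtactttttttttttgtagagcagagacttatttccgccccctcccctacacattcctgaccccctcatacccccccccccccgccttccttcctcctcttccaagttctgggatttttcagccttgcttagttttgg

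Counting back from -1, the base before the RefSeq start, the Mt2 stretch held 3 metal response element cores, TGCACCC at -223 to -217, TGCGCTC at -128 to -122 and, read on the other strand, GTGTGCA at -50 to -44. Mt1 held 1, TGCACAC at -23 to -17. Slc30a1 held 1, GAGTGCA at -43 to -37 on the other strand. Among all 32851 RefSeq windows of the same length, 21.4% held at least 1 such core and 1.26% at least 3. The Sgk1 stretch held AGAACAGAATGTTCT at -189 to -175, which was present in 1 of its windows, while only 3 of the 32851 windows, 0.00913%, held any glucocorticoid response element of that spelling. A match is a run of letters and does not show that a factor was bound. A gene with fewer matches or none lacks only these letters in the window set by its annotated start.

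None of the 8 genes passed the test between rilmenidine and control kidneys. The deposited counts were fitted with the edgeR quasi-likelihood test over 10055 genes, and 0 of the 7 members that entered it had an adjusted p under 0.05, where 0% of all genes tested did. DESeq2 called 60 and the edgeR likelihood ratio test 44 of these genes, again with 0 members among them. At an unadjusted p under 0.05, 1 of 7 members was lower, Sgk1, against 6.13% of all genes tested, and 0 were higher, against 4.43% (10.6% in either direction). Zbtb16 had too few counts to be tested. For no member did the kidneys of the groups separate fully, a pattern seen in 1.67% of genes tested, 0.796% higher and 0.875% lower. Levels below are normalized CPM, counts scaled to library size and by edgeR's RLE factors, and fold changes are rilmenidine against control on the log2 scale.

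**Figure D1:**
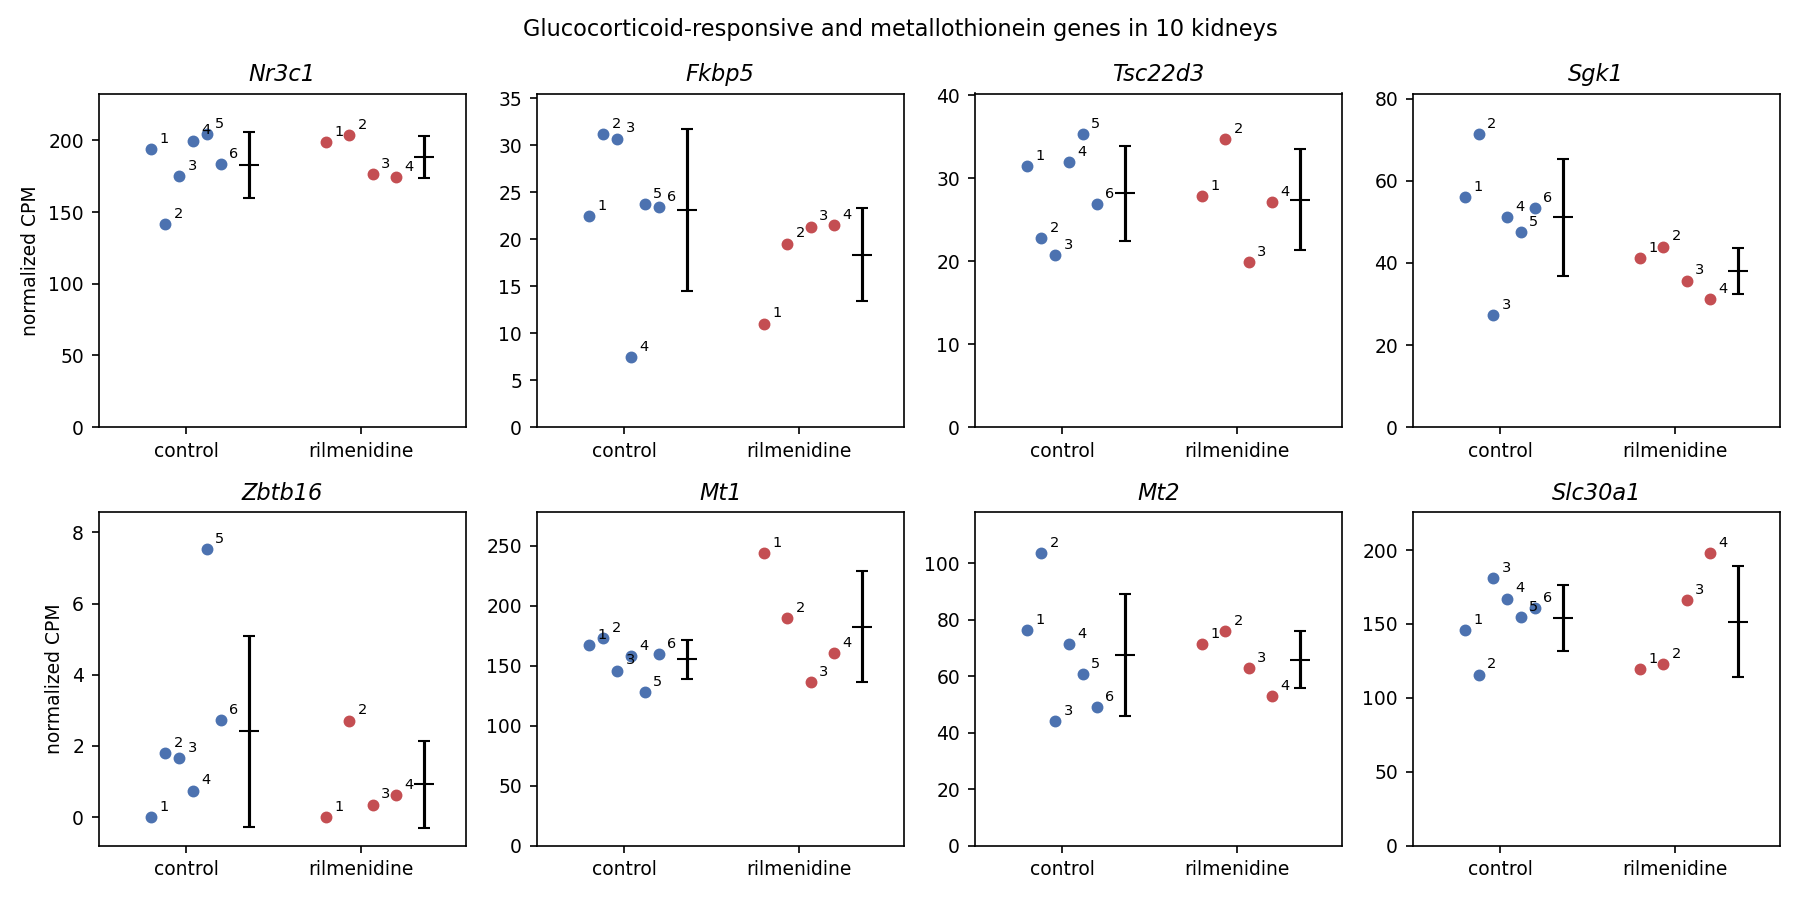
Normalized CPM of the 8 genes in each kidney (y axis, linear, own scale per gene), control kidneys (n = 6) and rilmenidine kidneys (n = 4) side by side, each point a kidney with its replicate number and each bar a group mean with its SD. The groups overlap for every gene, 5 of 6 control kidneys lie above every rilmenidine kidney for Sgk1 and for Fkbp5, and rilmenidine kidneys 1 and 2 lie above every control kidney for Mt1.

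The receptor itself differed little between kidneys. Nr3c1 (ENSMUSG00000024431, chromosome 18) ranged from 141 to 204 normalized CPM in the control kidneys with a median of 189, and stood at 199, 204, 177 and 175 in rilmenidine kidneys 1 to 4. The rilmenidine kidneys lay inside the control range, and control kidney 2 was the lowest of all 10. Group means were 183 ± 23.0 (SD, n = 6) and 188 ± 15.0 (SD, n = 4). The log2 fold change was 0.04 (SE 0.13, 95% confidence interval -0.22 to 0.31), with an adjusted p of 0.944 in the edgeR quasi-likelihood test. With 173 to 559 counts per library, it was among the members measured with the least counting error. In the 7 libraries that passed 10 CPM on receptor genes the fold change was 0.14 (unadjusted p 0.437). Over all 10 kidneys the interval excludes changes larger than 0.31 on the log2 scale in either direction.

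Fkbp5 (ENSMUSG00000024222, chromosome 17, 28399094 to 28517527, minus strand, build GRCm38) had a control range of 7.43 to 31.2 normalized CPM with a median of 23.6. In the rilmenidine kidneys it stood at 11.0, 19.5, 21.3 and 21.5. Control kidney 4 was the lowest of all and far from the rest of its group, and the other 5 control kidneys lay above every rilmenidine kidney. At least 5 of 6 control kidneys lay above every rilmenidine kidney for 4.38% of all genes tested. Means were 23.1 ± 8.59 (SD, n = 6) and 18.4 ± 4.98 (SD, n = 4), the log2 fold change was -0.32 (SE 0.29, 95% confidence interval -0.93 to 0.30) and the adjusted p 0.751 (edgeR quasi-likelihood). Without control kidney 4 the fold change was -0.49 with an unadjusted p of 0.0415 and an adjusted p of 0.610 in the same edgeR test. It was -0.15 without rilmenidine kidney 1 (unadjusted p 0.608) and -0.21 without control kidney 2 (unadjusted p 0.501). In the 7 libraries that passed 10 CPM on receptor genes it was -0.60 (SE 0.43, unadjusted p 0.185), with library size as a covariate -0.53 (unadjusted p 0.178) and with Malat1 -0.50 (unadjusted p 0.187). The count behind Fkbp5 was 10 to 69 reads per library. Reads of Fkbp5 and of genes annotated over it on either strand cannot be told apart here.

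Tsc22d3 (ENSMUSG00000031431, chromosome X, 140539528 to 140600659, minus strand) ranged from 20.7 to 35.3 normalized CPM in control kidneys, median 29.2. The rilmenidine kidneys had 27.8, 34.8, 19.9 and 27.2. Rilmenidine kidney 3 was the lowest of the 10 and control kidney 5 the highest, with the groups interleaved in between. The means, 28.2 ± 5.68 (SD, n = 6) and 27.4 ± 6.05 (SD, n = 4), gave a log2 fold change of -0.05 (SE 0.20, 95% confidence interval -0.47 to 0.37, edgeR adjusted p 0.965). In the 7 libraries that passed 10 CPM on receptor genes it was 0.14 (unadjusted p 0.610), of the opposite sign.

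Sgk1 (ENSMUSG00000019970, chromosome 10, 21882184 to 21999903, plus strand) was the member with the smallest p. Control kidneys ran from 27.4 to 71.3 normalized CPM with a median of 52.3, and rilmenidine kidneys stood at 41.2, 44.0, 35.7 and 31.2. As with Fkbp5, 5 of 6 control kidneys lay above every rilmenidine kidney, and the exception, control kidney 3, was below them all. The means were 51.2 ± 14.2 (SD, n = 6) and 38.0 ± 5.69 (SD, n = 4), and the log2 fold change was -0.44 (SE 0.20, 95% confidence interval -0.88 to -0.01, unadjusted p 0.0436), with an adjusted p of 0.456 in the edgeR quasi-likelihood test. The exact two-sided permutation test over 210 splits of the kidneys gave p = 0.162, where the smallest possible p was 0.00476. Leaving out the lowest control kidney, control 3, gave -0.56 (unadjusted p 0.00383, edgeR adjusted p 0.401), and leaving out the highest, control 2, gave -0.32 with an unadjusted p of 0.116. Among the 7 libraries with at least 10 CPM on receptor genes the fold change was -0.26, unadjusted p 0.373. With Malat1 as a covariate it was -0.64, unadjusted p 0.0157.

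Markers of the distal segments in which Sgk1 acts were set beside it. The 4 markers of the distal convoluted tubule, the most abundant being Calb1, all had negative fold changes, with a median of -0.45, and 2 of 4 had an unadjusted p under 0.05, against 6.13% lower over all genes tested. These were Slc12a3, the thiazide-sensitive sodium chloride cotransporter, at -0.55 (p 0.00922, edgeR), and the magnesium channel Trpm6 at -1.01 (p 0.00682, edgeR), whose groups did not overlap (0.875% of all genes tested in this direction). The list summed to 755 to 1254 normalized CPM in control kidneys, median 973, and to 988, 765, 592 and 754 in the rilmenidine kidneys, so that its sums overlapped between the groups. Of 6 markers of collecting duct principal cells, 5 were tested and 2 were higher at an unadjusted p under 0.05, against 4.43% of all genes tested, the water channels Aqp2 at 0.58 (p 0.00134, edgeR) and Aqp3 at 0.34 (p 0.0393, edgeR). The sum over all 6 principal cell markers did not overlap between groups. It was 143 to 190 in control kidneys, median 171, and 201, 215, 217 and 230 in the rilmenidine kidneys. Aqp2, the most abundant of them, did not overlap by itself (0.796% of all genes tested in this direction). It had 52.6 to 79.7 in control kidneys and 81.2 to 122 in rilmenidine kidneys, a large part of the sum. The groups overlapped for each of the other markers, so the sum does not show a shift of the whole list. How often sums of other lists separate was not counted. In the 7 libraries with at least 10 CPM on receptor genes the median log2 fold change was -0.18 for the distal convoluted tubule markers. For the principal cell markers it was 0.40, against 0.16 over all 10 kidneys. Without control kidney 2 the principal cell median was 0.096. None of these markers was at 0 in all libraries, none passed the adjusted threshold, and their part in the Sgk1 values was not tested. Among the other kidney markers, 0 of 8 of the proximal tubule, 0 of 4 tested of podocytes and 0 of the tested intercalated and endothelial ones had an unadjusted p under 0.05. In the thick ascending limb 1 of 4 tested did, against 4.43% higher over all genes tested, Umod (uromodulin) at 0.61 (p 0.00237, edgeR). Slc12a1, Cldn10 and Kcnj1 were at 0.08, 0.06 and 0.07, and the median of the list was 0.079. Of the 3 subunits of the sodium channel that Sgk1 acts on, Scnn1a was at 0.003 (p 0.984, edgeR), Scnn1b at -0.34 (p 0.265) and Scnn1g at 0.11 (p 0.599).

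Zbtb16 (ENSMUSG00000066687, chromosome 9, 48654297 to 48836222, minus strand) lay near the limit of detection. Control kidneys 1 to 6 had 0, 3, 2, 1, 13 and 7 counts, and rilmenidine kidneys 1 to 4 had 0, 5, 1 and 2. Control kidney 5 held the highest count and 7.52 normalized CPM, and each group had a kidney with none. A fit that kept every gene with a count gave a log2 fold change of -1.45 with an SE of 0.96 (edgeR adjusted p 0.638), so no difference was detected. The parts of low depth and of spread between kidneys in that were not tested.

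Mt1 was the member with the highest positive fold change. Mt1 (ENSMUSG00000031765, chromosome 8, 94179082 to 94180327, plus strand) ranged from 128 to 173 normalized CPM in the control kidneys, median 159, and had 244, 190, 136 and 161 in the rilmenidine kidneys. Rilmenidine kidneys 1 and 2 exceeded every control kidney, while kidneys 3 and 4 lay inside the control range. The means, 155 ± 16.3 (SD, n = 6) and 183 ± 46.3 (SD, n = 4), gave a log2 fold change of 0.23 (SE 0.15, 95% confidence interval -0.09 to 0.55, unadjusted p 0.150) and an adjusted p of 0.623 in edgeR. The exact permutation p was 0.252. Rilmenidine kidney 1 carried most of the difference, since without it the fold change was 0.06 (unadjusted p 0.684). Without rilmenidine kidney 3 it was 0.35 (unadjusted p 0.0363, edgeR adjusted p 0.638), and in the 7 libraries that passed 10 CPM on receptor genes, which lack rilmenidine kidneys 3 and 4, it was 0.49 (unadjusted p 0.0127, edgeR adjusted p 0.349).

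Mt2 lies upstream of Mt1 on the same strand (ENSMUSG00000031762, chromosome 8, 94172664 to 94173568). Its window, printed above, holds 3 metal response element cores where that of Mt1 holds 1. Each window ends at an annotated RefSeq start, so these counts do not compare the whole promoters of the 2 genes. Mt2 ran from 44.0 to 104 normalized CPM in control kidneys with a median of 66.0, and stood at 71.3, 76.0, 63.0 and 53.1 in rilmenidine kidneys. All 4 rilmenidine kidneys lay inside the control range, whose top was control kidney 2 and whose bottom was control kidney 3. The means of 67.5 ± 21.6 (SD, n = 6) and 65.9 ± 10.1 (SD, n = 4) gave a log2 fold change of -0.04 (SE 0.21, 95% confidence interval -0.47 to 0.40, edgeR adjusted p 0.973). The sign turned in the 7 libraries that passed 10 CPM on receptor genes, at 0.044 (unadjusted p 0.866), and without control kidney 2, at 0.13 (unadjusted p 0.464).

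Summed over Mt1 and Mt2, the kidneys had 223 ± 34.2 normalized CPM in controls (SD, n = 6) and 249 ± 52.9 with rilmenidine (SD, n = 4), exact permutation p = 0.381. The number of Mt1 counts per Mt2 count, a ratio within each library that is not scaled by length, was 2.46 ± 0.671 in controls and 2.78 ± 0.558 with rilmenidine, exact permutation p = 0.395. The brain-enriched Mt3 and the epithelial Mt4 had 0 counts in all 10 libraries.

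Slc30a1 (ENSMUSG00000037434, chromosome 1, 191906767 to 191913247, plus strand) ranged from 116 to 181 normalized CPM in the control kidneys, median 158. In the rilmenidine kidneys it stood at 119, 123, 166 and 198. The groups overlapped over most of their range, rilmenidine kidney 4 was the highest of the 10 and control kidney 2 the lowest. Means were 154 ± 22.3 (SD, n = 6) and 152 ± 37.6 (SD, n = 4), with a log2 fold change of -0.02 (SE 0.16, 95% confidence interval -0.36 to 0.32, edgeR adjusted p 0.982). In the 7 libraries that passed 10 CPM on receptor genes it was -0.33 (unadjusted p 0.0962, edgeR adjusted p 0.541). An antisense gene annotated over Slc30a1, 1700034H15Rik, was assigned at most 5 counts in a library where Slc30a1 had 130 to 634, but with the strand setting unknown this does not bound its share of the Slc30a1 reads.

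**Figure D2:**
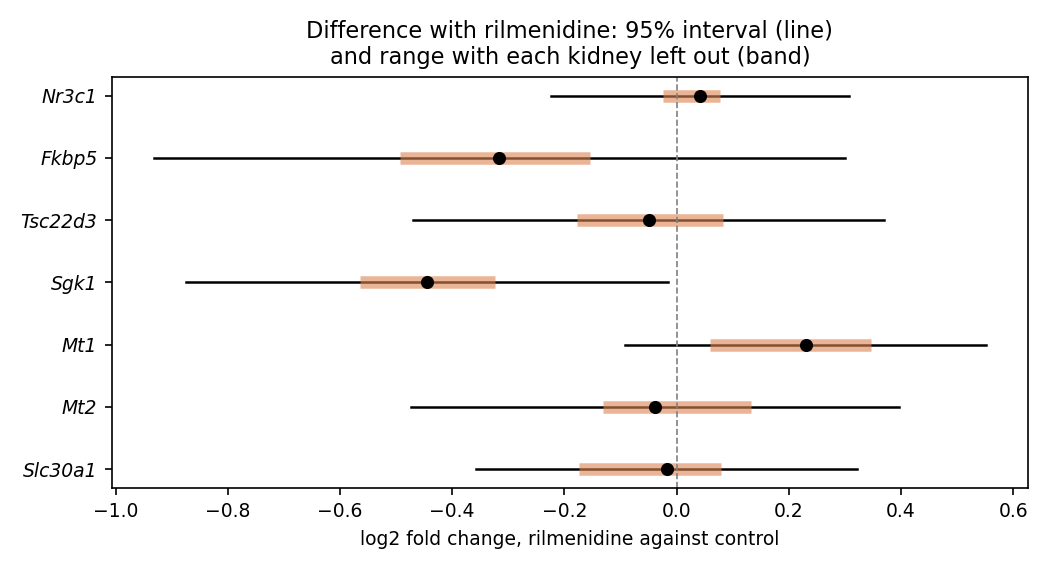
Log2 fold change of rilmenidine (n = 4) against control (n = 6) kidneys for the 7 tested genes on the horizontal axis, with points for the edgeR estimate, lines for its 95% confidence interval and bands for the range of estimates when kidneys were left out singly. The Sgk1 interval, -0.88 to -0.01, is the one that leaves out 0, before adjustment over all genes tested.

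Kidneys of the same group differed by gene. In control kidneys the coefficient of variation (SD over mean of normalized CPM) was 37.1% for Fkbp5, 32.0% for Mt2 and 27.9% for Sgk1. Genes with a similar count, within 1.5 times, had median coefficients of 23.7% (quartiles 18.4% to 30.7%), 17.9% (13.6% to 23.3%) and 18.6% (14.2% to 24.4%), so these 3 members lay above the upper quartile of their peers. Leaving out single kidneys, a step added after the data were seen, moved Fkbp5 to 16.3% without control kidney 4 (median of peers 23.8%) and Sgk1 to 16.4% without control kidney 3 (median of peers 18.5%), so those spreads rest on 1 kidney each. Mt2 was at 23.0% without control kidney 2, beside an upper quartile of 22.6%. Counting alone would give 16.5%, 9.83% and 11.1%. The other 4 tested members lay under the median of their peers, with 20.2% for Tsc22d3 against 22.3%, 14.4% for Slc30a1 against 14.7%, 12.6% for Nr3c1 against 14.2% and 10.5% for Mt1 against 14.7%. Without control kidney 2 the coefficient was 6.22% for Nr3c1 and 8.19% for Slc30a1, and without control kidney 5 it was 6.36% for Mt1. In the rilmenidine kidneys the coefficients were 27.1% for Fkbp5, 25.4% for Mt1, 24.8% for Slc30a1, 22.1% for Tsc22d3, 15.3% for Mt2, 15.0% for Sgk1 and 7.94% for Nr3c1. Without rilmenidine kidney 1 that of Fkbp5 was 5.28% and that of Mt1 16.4%, without rilmenidine kidney 3 that of Tsc22d3 was 14.0%, and without rilmenidine kidney 4 that of Mt2 was 9.43%. The Slc30a1 coefficient ran from 19.2% without rilmenidine kidney 4 to 30.3% without rilmenidine kidney 3. The upper quartiles of its peers over the same kidneys were 19.0% and 19.1%. These spreads are descriptions, and the difference in spread between groups was not tested.

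**Figure D3:**
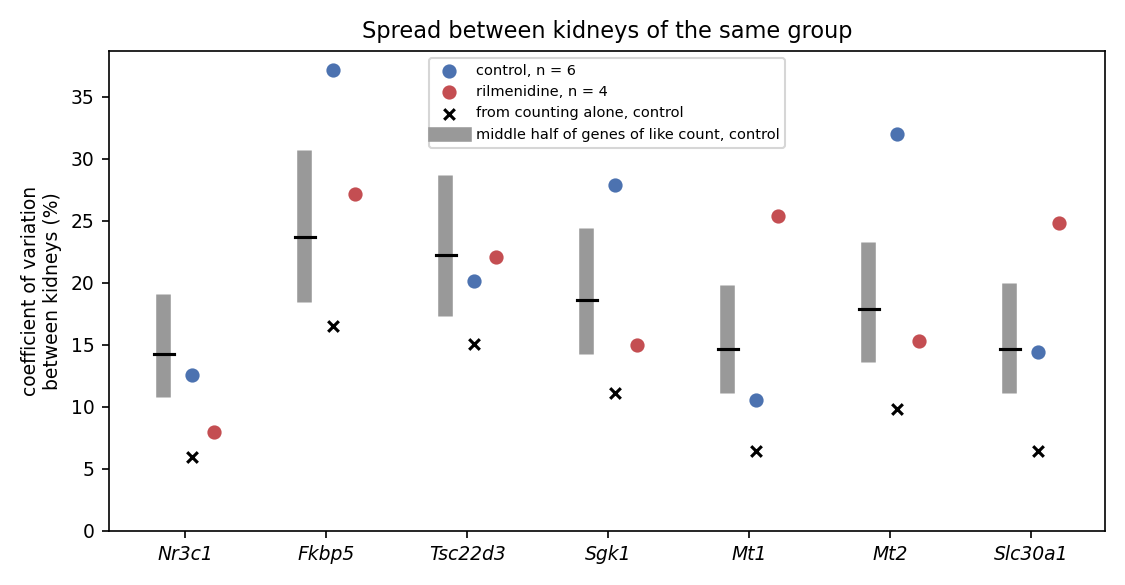
Coefficient of variation between kidneys (percent) of the 7 tested genes, blue for control (n = 6) and red for rilmenidine (n = 4), with a cross for the value counting alone would give in controls and a grey bar with a line for the quartiles and median of genes with a similar count in controls. Fkbp5, Mt2 and Sgk1 lie above the upper quartile of their peers in controls, Fkbp5 and Sgk1 through 1 kidney each (16.3% without control kidney 4 and 16.4% without control kidney 3), and the rilmenidine kidneys run from 7.94% for Nr3c1 to 27.1% for Fkbp5.

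Over the 10 kidneys the 7 tested members were compared in 21 pairs on log2 normalized CPM, by permutation tests with p-values adjusted over the pairs. None passed an adjusted 0.05. Mt2 and Slc30a1 had opposite courses, with Pearson's r of -0.78 (permutation p 0.00691, adjusted p 0.115) and Spearman's rho of -0.78 (permutation p 0.0104, adjusted p 0.109). The r was -0.65 without the 2 kidneys farthest from the median of Mt2, -0.87 in the 6 control kidneys and -0.78 in the 7 libraries with at least 10 CPM on receptor genes. In control kidney 2, Mt2 was at its highest and Slc30a1 at its lowest. Nr3c1 and Tsc22d3 ran together, with r of 0.72 (permutation p 0.0137, adjusted p 0.115) and rho of 0.84 (permutation p 0.00373, adjusted p 0.0783), and r was 0.94 without the 2 farthest kidneys, 0.78 in controls and 0.78 in the 7 libraries.

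Sgk1 and Mt2 had r of 0.73 (permutation p 0.0164, adjusted p 0.115) and rho of 0.61 (permutation p 0.0648, adjusted p 0.256), but r was 0.27 without the 2 kidneys farthest from the median of Sgk1, so over all kidneys that relation rests on them. It was 0.82 in the 6 control kidneys and 0.91 in the 7 libraries, both of which hold these kidneys, control 2 and control 3. Mt1 and Slc30a1 had r of -0.65 (permutation p 0.0371, adjusted p 0.195) and rho of -0.62 (permutation p 0.0611, adjusted p 0.256), with -0.69 without the 2 farthest kidneys. The metallothioneins had r of 0.40 with each other (permutation p 0.248, adjusted p 0.578) and rho of 0.62 (permutation p 0.0597, adjusted p 0.256). Fkbp5 and Tsc22d3, both glucocorticoid-responsive, had r of -0.41 (permutation p 0.241, adjusted p 0.578) and rho of -0.35 (permutation p 0.329, adjusted p 0.818). The values of a pair share a library and its depth.

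**Figure D4:**
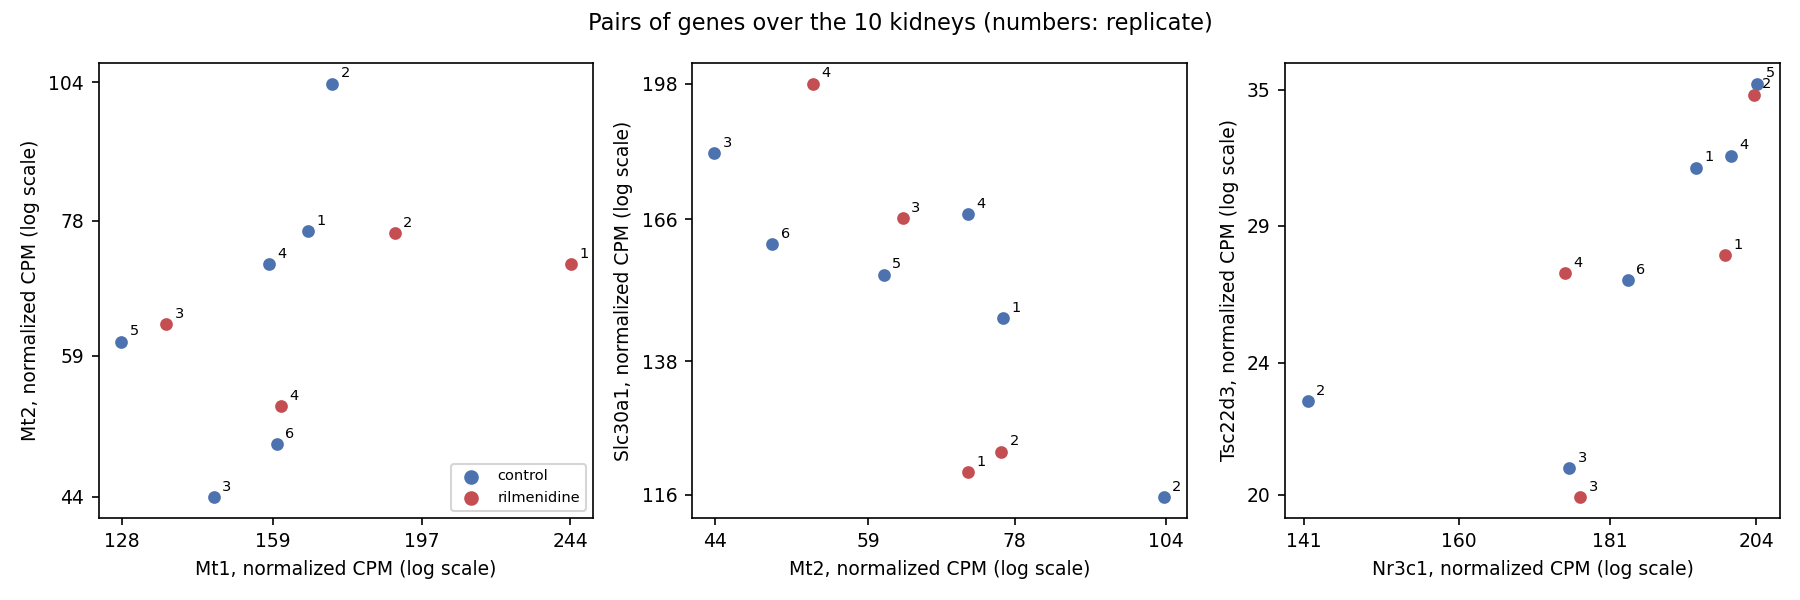
Normalized CPM on log axes for 3 pairs of members in the 10 kidneys, each point a kidney with its replicate number, control kidneys (n = 6) blue and rilmenidine kidneys (n = 4) red. Mt1 against Mt2 scatters (r 0.40), Mt2 against Slc30a1 descends (r -0.78) and Nr3c1 against Tsc22d3 ascends (r 0.72).

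For each tested member the 3 genes with the nearest course over the 10 kidneys were found by the mean absolute difference in SD units, for which the median over all genes tested was 1.06 to 1.11. Nr3c1 was nearest to Pdcd7 (0.268), 2310010J17Rik and Cd2ap. Fkbp5 lay nearest to Gm17201 (0.224), Cnot10 and Tmem170. Sgk1 had Ilf2 (0.261), Snapc1 and Ciao2b as its nearest genes, and Tsc22d3 had Napb (0.272), Wipf1 and Bace1. For Mt1 they were Spns3 (0.230), Osr2 and Gstt3, for Mt2 Irf1 (0.317), Wdr92 and Dennd4a, and for Slc30a1 Rnf14 (0.240), Ywhab and Pm20d1. No member was among the nearest 3 of another.

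Other genes known to be induced by glucocorticoids gave a mixed picture. Of 30 listed, 24 were tested, 0 had an adjusted p under 0.05, 3 were higher and 1 lower at an unadjusted p under 0.05 (4.43% and 6.13% of all genes tested), and the median log2 fold change was -0.01 against 0.00 over all genes tested and -0.04 over the 7 members. The members' median was 0.081 with library size and 0.088 with Malat1 as a covariate. Fam107a, which encodes an actin-associated protein, had 14.9 to 26.7 normalized CPM in control kidneys and 15.7, 26.1, 86.1 and 42.5 in rilmenidine kidneys (log2 fold change 1.22, SE 0.35, edgeR adjusted p 0.272). Rilmenidine kidneys 3 and 4 were above every control kidney and the others were not. Angptl4, an inhibitor of lipoprotein lipase, was at 5.81 to 43.8 in controls and at 46.4, 27.2, 33.9 and 38.7 with rilmenidine (log2 fold change 1.00, SE 0.38, edgeR adjusted p 0.360). Nfkbia, the inhibitor of NF-kappa-B, had 0.40 (unadjusted p 0.0335), the cell cycle inhibitor Cdkn1a had -0.86 (unadjusted p 0.0455), and the repressor Bcl6, with the lowest fold change, had -0.96 (unadjusted p 0.108). Per1, a widely used marker of the receptor's activity, had at most 7 counts and was not tested.

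Chaperones, coregulators and hormone-converting enzymes around the receptor were also counted. Of 20, 18 were tested, 0 had an adjusted p under 0.05, 0 were higher and 3 lower at an unadjusted p under 0.05 (4.43% and 6.13% of all genes tested), with a median of -0.16. That median was -0.043 without control kidney 2. The corepressor Ncor1 had -0.45 (unadjusted p 0.00618, edgeR adjusted p 0.293), the coactivator Crebbp -0.41 (unadjusted p 0.0149) and the corepressor Nrip1 -0.42 (unadjusted p 0.0402). Crebbp did not overlap between groups (0.875% of all genes tested in this direction), with 52.8 to 79.8 normalized CPM in controls and 47.6, 51.6, 41.6 and 49.3 with rilmenidine. Hsd11b1, which regenerates active glucocorticoid, and Hsd11b2, which inactivates it in the distal nephron, had -0.18 (unadjusted p 0.555) and 0.06 (unadjusted p 0.787). Nr3c2, the mineralocorticoid receptor, which shares the ligand and many targets, had -0.08 (unadjusted p 0.819). Hspa8, a chaperone with the highest fold change of the list at 0.35, varied between 2.49 and 94.9 in controls and between 3.85 and 102 in rilmenidine kidneys.

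Around the metallothioneins, 16 of 22 genes of zinc handling were tested, 0 had an adjusted p under 0.05, 0 were higher and 1 lower at an unadjusted p under 0.05, a share near the 6.13% of all genes tested that were lower, and the median was -0.02, or -0.16 in the 7 libraries that passed 10 CPM on receptor genes. That gene was Slc30a9, a zinc transporter of the mitochondrion, at -0.29 (unadjusted p 0.0494). Mtf1, the factor that reads the metal response element, had -0.13 (SE 0.22, unadjusted p 0.560), and the importers Slc39a8 and Slc39a14 had 0.50 (unadjusted p 0.103) and -0.44 (unadjusted p 0.112). Of 9 genes of copper handling, 7 were tested, 0 had an adjusted p under 0.05, 2 were higher at an unadjusted p under 0.05, against 4.43% of all genes tested, and 0 lower, with a median of 0.20. That median was 0.06 with library size and -0.023 with Malat1 as a covariate. Cox17, the copper chaperone of cytochrome oxidase, had 219 to 283 normalized CPM in controls and 311, 318, 346 and 303 with rilmenidine, without overlap, a pattern of 0.796% of all genes tested in this direction (log2 fold change 0.37, SE 0.11, edgeR adjusted p 0.285). Sod1, the copper and zinc superoxide dismutase, had 0.28 (unadjusted p 0.0459), and the transporter Slc31a2 had -0.28 (unadjusted p 0.285).

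**Figure D5:**
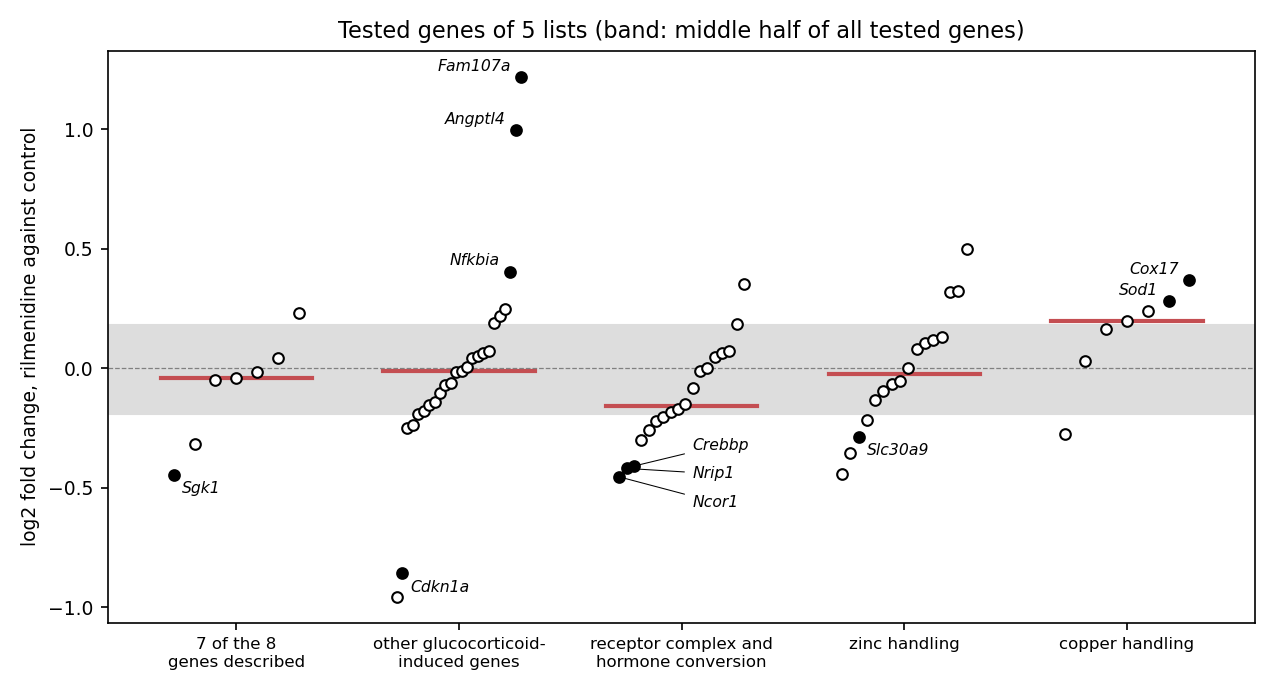
Log2 fold change (y axis) of the tested genes in 5 lists, a point per gene, filled and named where the unadjusted p is under 0.05, with red lines for list medians and a grey band for the middle 50% of all genes tested. List medians are -0.04 for the 7 members, -0.01, -0.16 and -0.02 for the other glucocorticoid-induced, receptor complex and zinc lists, and 0.20 for copper, which was -0.023 with Malat1 as a covariate. The receptor complex median was -0.043 without control kidney 2.

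Adrenal glucocorticoid follows the time of day, and genes of the circadian clock were set beside the members. Of 16, 13 were tested, 0 had an adjusted p under 0.05, 0 were higher and 3 lower at an unadjusted p under 0.05 (4.43% and 6.13% of all genes tested), and the median was 0.07, or -0.078 without rilmenidine kidney 1. Positive fold changes were seen for 7 and negative ones for 6. The list holds activators and repressors of the clock together, so its median does not describe a shift of the clock. The repressor Nfil3 had -1.46 (edgeR adjusted p 0.225), the clock activator Arntl -1.41 (edgeR adjusted p 0.232) and its relative Npas2 -1.20 (edgeR adjusted p 0.341), while the repressor Bhlhe41 had the highest, 0.60 (unadjusted p 0.238). Of 10 early response genes, which mark handling of tissue, 5 were tested and 1 was higher at an unadjusted p under 0.05 (4.43% of all genes tested), Ier3 at 0.68 (edgeR adjusted p 0.232), with Btg2 lowest at -0.53 (unadjusted p 0.137). The hour of collection was not analysed here, and the part of the clock and early response genes in the members' values was not tested.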

How the data were processed

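The authors deposited one table of read counts per Ensembl gene, without normalization. The submitters' processing notes name bcl2fastq 1.8.4, Trimmomatic 0.32, STAR 2.5.2b, featureCounts 1.5 and mm10. The libraries carry molecular identifiers, and whether duplicates were collapsed, the strand setting and the annotation release are not given in the sources used here. Reads of overlapping or antisense genes therefore cannot be told apart. Groups came from the labels, which list fewer control kidneys than the methods text.

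The 10055 genes that reached 6 reads in 7 or more of the 10 libraries were normalized by RLE and tested in edgeR 4.0.16 (R 4.3.3) by the quasi-likelihood test without covariates, with Benjamini-Hochberg adjustment. Logarithms used a prior count of 2. Single values were compared by two-sided exact permutation tests over 210 splits. DESeq2 1.42.0 was an alternative. The scripts were tested on simulated data. Gene positions are from GENCODE M21. All 8 genes are named, and from each other list those with an unadjusted p under 0.05 (at most 5), the extremes and, in marker lists, the most abundant gene, though not every such gene is described. The genes and lists were chosen with earlier results of these data known. No pair of libraries of a group agreed within sampling noise (smallest chi-square per degree of freedom 3.67). Depth limits genes under about 10 counts.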

Additional observations from a re-analysis of the deposited data

Results flagged for a closer look

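Of 20 sets of values examined, 2 held a kidney far from the others of its group by Dixon's criterion at the 95% level. It marks about 1 in 20 sets by chance where values are normally distributed, and the sets share libraries. Zbtb16, with 0 to 13 counts, lies near the floor, where that rate need not hold. Control kidney 4 had 7.43 normalized CPM of Fkbp5, the lowest of all 10 kidneys, while the other 5 control kidneys had 22.4 to 31.2. Control kidney 5 had 7.52 normalized CPM of Zbtb16, from 13 counts, while the next highest kidney had 2.73. No cause was tested for either value.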

How the results depend on the processing

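The number of members with an adjusted p under 0.05 was 0 in all 19 alternatives to the fit over 10 kidneys. The number of all genes called, 0 in that fit (1061 at an unadjusted p under 0.05), was 241 of 27565 when every gene with a count was kept, 60 with DESeq2, 44 with the edgeR likelihood ratio test, and 0 to 37 when each kidney was left out, with 33 without control kidney 2, 37 without control kidney 6 and 6 without rilmenidine kidney 1. The cause was not tested. TMM normalization, a filter of 10 counts in every library, and library size or Malat1 as covariates gave 0. With the replicate number as a block, 3 genes and 0 members were called, Sgk1 was at -0.40 (unadjusted p 0.0834) and Tsc22d3 at 0.041. Same-numbered kidneys did not deviate together (correlations 0.0762, 0.0775, -0.0768 and -0.00704), so the numbers do not pair the samples.

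Sgk1 and Fkbp5 were negative and Mt1 positive in all 19 alternatives. Sgk1 ranged from -0.56 to -0.32 with each kidney left out, Fkbp5 from -0.49 to -0.15 and Mt1 from 0.06 to 0.35. In the 7 libraries, with library size and with Malat1 as covariate, Sgk1 was -0.26, -0.46 and -0.64, and Fkbp5 -0.60, -0.53 and -0.50. In the same order Mt1 was 0.49, 0.37 and 0.13, Slc30a1 -0.33, -0.17 and 0.088, and Nr3c1 0.14, 0.13 and 0.19. Members near 0 turned sign. Tsc22d3 was 0.081 with library size and 0.15 with Malat1 as covariate and 0.14 in the 7 libraries with at least 10 CPM on receptor genes, and -0.18 to 0.082 with each kidney left out. Mt2 was 0.11 with library size and 0.044 in those 7 libraries, and -0.13 to 0.13 with each kidney left out. Slc30a1 ran from -0.17 to 0.079 and Nr3c1 from -0.025 to 0.078 with each kidney left out. The number of members with an exact permutation p under 0.05 was 0 over 10 kidneys and 0 to 1 with each left out, the 1 being Sgk1 without control kidney 3 (p 0.00794), Fkbp5 without control kidney 4 (p 0.00794) and Mt1 without rilmenidine kidney 3 (p 0.0357). For Sgk1 and Fkbp5 the kidney left out was the 1 control below every rilmenidine kidney. Without it the groups separate fully, which fixes p at the smallest value that 126 splits allow. These 2 values are therefore no separate support for a difference. Summed Mt1 and Mt2 differed by 0.02 to 0.24 on the log2 scale with each kidney left out, none with an exact permutation p under 0.05. The 3 libraries under 10 CPM on receptor genes hold 1 control kidney, too few for a value of their own. Zbtb16 had at most 13 counts, and the parts of depth and of spread between kidneys in its values were not tested.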
